A study of Mus musculus with 4 samples.

Results

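The annexin genes Anxa1, Anxa2, Anxa3, Anxa4, Anxa5, Anxa6, Anxa7 and Anxa11 are described here in wild-type and Ybx1 conditional knockout leukaemia cells. The gene Ybx1 encodes an RNA-binding protein. These annexin genes make up 8 of the 28141 gene rows in the expression table. They were chosen by the measured difference between the knockout and the wild-type libraries, because the family was higher in the knockout. Their differences in that comparison are therefore a description and carry no test. A further 3 annexin genes had a row and lay outside the choice: Anxa9, Anxa10 and Anxa13.

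The study sequenced polyadenylated RNA of leukaemia cells taken from the bone marrow of C57BL/6 mice, in a project on chronic myeloid leukaemia. The labels call the cells LSCs. A first group of 2 libraries came from wild-type LSCs (WT) and a second group of 2 from LSCs with a conditional knockout of Ybx1 (YBX1cKO, written cKO below). The sources used here do not give how the leukaemia was induced, which promoter drives the Cre recombinase, which exons were deleted, the age and sex of the mice or any sorting of the cells. The labels do not state whether replicates are separate animals. Errors and p-values therefore cover only the scatter of these 4 libraries, which may be technical.

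Annexins are cytosolic proteins that attach to acidic phospholipids of membranes when calcium rises. They share a conserved core of repeats that holds the calcium sites, and differ in the stretch before the core, which binds partner proteins such as the small S100 proteins. In myeloid cells they are known for membrane fusion and repair, for the surface activation of plasminogen and, in the case of annexin A1, for damping inflammation through the formyl peptide receptors. Annexin A5 is the protein used to stain phosphatidylserine on dying cells.

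All positions are on GRCm38, from GENCODE M21. The 8 genes lie on 7 chromosomes: Anxa1 on chromosome 19 from 20373428 to 20390944, Anxa2 on chromosome 9 from 69453620 to 69491795, Anxa3 on chromosome 5 from 96793339 to 96845966, and Anxa4 on chromosome 6 from 86736840 to 86793584. Anxa5 lies on chromosome 3 from 36448923 to 36475894 and Anxa6 on chromosome 11 from 54979108 to 55033445. Chromosome 14 holds Anxa7, from 20455260 to 20480133, and Anxa11, from 25842156 to 25886804. Their longest annotated reading frames run from 319 codons in Anxa4 and Anxa5 to 673 in Anxa6, whose protein carries a duplicated core. Anxa7 (485 codons) and Anxa11 (503 codons) have the long glycine- and proline-rich starts known for these members. The sources used here do not say whether reads were counted by strand. Genes on the opposite strand share 113 bases of exon with Anxa11 (Anxa11os), 98 with Anxa2 (Gm16144) and 75 with Anxa4 (Gm44036). Gm42603 shares 112 bases with Anxa3 on the same strand. Reads from these stretches may not be told apart.

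The promoter windows of 3 members are shown because these genes had the highest levels per length, and Anxa1 also the largest difference. Each window covers 250 bases before and 50 after the gene's RefSeq start on GRCm38.p6, 5′ to 3′ on the gene's strand. Capitals mark matches, on either strand, to any of 7 motifs: ATTGG (Y-box core), TGANTCA (AP-1), GAGGAA (PU.1 core), TTGCNNAA (C/EBP), AGAACA (1 arm of a glucocorticoid response element), GGGCGG (SP1) and TATAAA (the core of a TATA box). No listed match overlaps another.
Anxa1, chr19:20390622-20390921, minus strand: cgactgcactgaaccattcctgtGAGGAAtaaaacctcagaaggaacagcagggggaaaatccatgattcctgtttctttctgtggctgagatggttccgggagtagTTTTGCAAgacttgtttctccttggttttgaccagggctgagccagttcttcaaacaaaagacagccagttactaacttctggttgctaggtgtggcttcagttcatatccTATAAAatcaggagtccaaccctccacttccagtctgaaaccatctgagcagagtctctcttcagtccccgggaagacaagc
Anxa2, chr9:69453433-69453732, plus strand: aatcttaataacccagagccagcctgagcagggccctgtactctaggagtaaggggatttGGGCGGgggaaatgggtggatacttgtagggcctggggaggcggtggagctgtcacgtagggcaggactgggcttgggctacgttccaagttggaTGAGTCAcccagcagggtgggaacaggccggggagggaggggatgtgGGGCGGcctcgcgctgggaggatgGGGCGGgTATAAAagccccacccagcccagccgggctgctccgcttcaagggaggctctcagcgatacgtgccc
Anxa5, chr3:36475838-36476137, minus strand: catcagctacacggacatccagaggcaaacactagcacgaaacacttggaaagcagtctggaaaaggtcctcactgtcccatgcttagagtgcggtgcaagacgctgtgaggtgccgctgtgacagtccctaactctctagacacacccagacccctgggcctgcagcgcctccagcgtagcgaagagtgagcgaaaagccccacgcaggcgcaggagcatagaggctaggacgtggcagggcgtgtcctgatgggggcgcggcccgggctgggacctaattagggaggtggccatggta
Counted from the annotated start as 0, the Anxa1 window holds GAGGAA from -227 to -222, a C/EBP match from -143 to -136 and TATAAA from -32 to -27. The Anxa2 window holds the AP-1 letters from -95 to -89, GGGCGG at 3 places and TATAAA from -17 to -12. The Anxa5 window, with a GC content of 60.3%, holds none of the 7. RefSeq windows were found for 6 of the 8 members, 8 windows in all, since Anxa4 and Anxa7 have 2 starts each and those of Anxa7 overlap. TATAAA was found in windows of 2 members (Anxa1 and Anxa2) and in 13.6% of all 32851 windows of this length. The C/EBP letters were found in windows of 2 members (Anxa1 and Anxa4) and in 10.8% of all windows, GAGGAA in 2 (Anxa1 and Anxa11) and in 28.3%, and AGAACA in 1 (Anxa4) and in 19%. GGGCGG was found in 4 members (Anxa2, Anxa4, Anxa7 and Anxa11) and in 35.7% of all windows, and TGANTCA in 1 (Anxa2) and in 7.81%. ATTGG, the core of the Y-box after which Ybx1 is named, was found in 0 of the 8 member windows and in 37.4% of all windows. These matches describe letters and not binding.

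Ybx1 itself checked the labels. The WT libraries held it at log2 levels of 9.31 and 9.41, the cKO libraries at 8.19 and 8.13, a difference of -1.20 (SE 0.08, limma adjusted p = 1.1e-11). Its RNA was thus lower in cKO but still present, at 0.44 times the WT level. Levels are on a log2 scale that was inferred from the values, as the deposited table does not state its own. If the values were plain log2, each log2 difference would be 1.44 times as large. Of 15527 genes tested, 19.5% were higher in cKO and 17.8% lower at a limma adjusted p under 0.05 (3035 and 2768 genes). Of these calls 52.3% were higher. When each library was divided by its own sum, every log2 difference moved by -0.12 and 34.5% of the calls were higher. That scaling was chosen after the data were seen. Depth is unknown because the table holds no counts.

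For all 8 annexins the lower cKO library stood above the higher WT library. The mean differences lay between 0.16 and 1.24 on the log2 scale, with a median of 0.50 against a median of 0.003 over all genes tested. This order of the libraries held for 32.7% of all genes tested. At the threshold above 7 of the 8 were called higher, beside the background of 19.5%. Among the 7646 genes at or above the mean level of the lowest member, Anxa3, 32.7% were called higher. Since the members were chosen on these values, nothing is read from the counts. In bulk RNA, more cells of a type and more RNA per cell cannot be told apart.

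**Figure D1:**
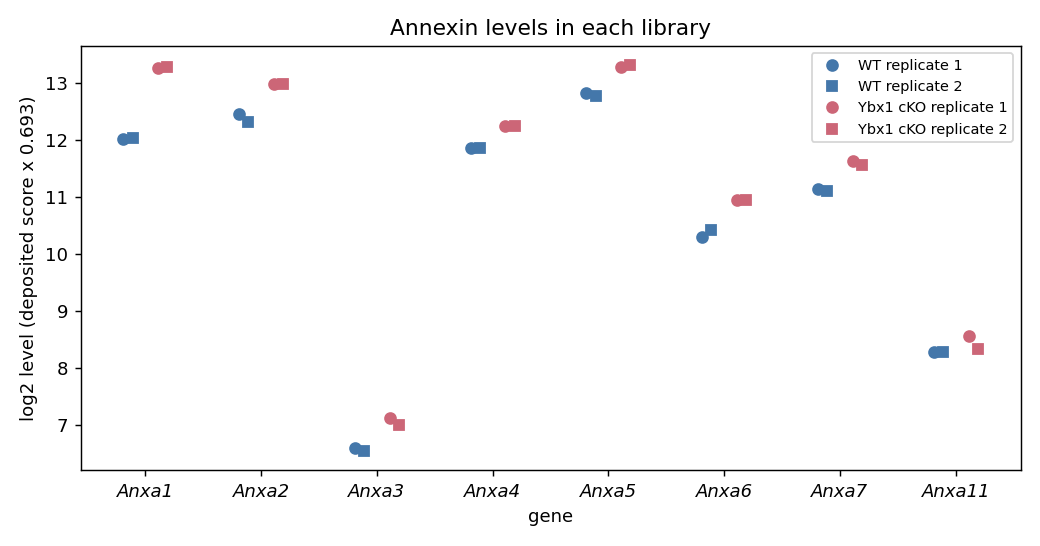
Log2 level (y axis, deposited score times 0.693) of the 8 annexin genes (x axis) in each of the 4 libraries, WT in blue and Ybx1 cKO in red, circles for replicate 1 and squares for replicate 2. Both cKO points lie above both WT points for each gene, with the widest gap for Anxa1 (1.24) and the narrowest for Anxa11 (0.16).

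Anxa1, the glucocorticoid-induced annexin once called lipocortin, had the largest difference. Its log2 level was 12.02 and 12.04 in WT and 13.26 and 13.28 in cKO. The 2 groups stood far apart and replicates lay within 0.02 of each other (SD 0.01 in WT and 0.02 in cKO, n = 2 each). The difference was 1.24 (SE 0.03), or 2.37-fold. Of the 15527 tested genes 230 (1.48%) had a larger one. Since the members were chosen on this difference, nothing is read from this rank.

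Anxa2, which pairs with S100a10 at the plasma membrane and binds plasminogen and its activator, had log2 levels of 12.45 and 12.32 in WT, against 12.98 in both cKO libraries. The WT libraries differed more from each other (SD 0.09) than the cKO libraries (SD 0.00), and the groups did not overlap. Its difference was 0.59 (SE 0.03), or 1.51-fold. Anxa6, the annexin with the duplicated core, had the same difference of 0.59 (SE 0.05), from 10.30 and 10.42 in WT to 10.94 and 10.95 in cKO.

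Anxa5, the phosphatidylserine binder, had log2 levels of 12.82 and 12.77 in WT, against 13.28 and 13.31 in cKO, a difference of 0.50 (SE 0.03). Anxa7, also known as synexin and bound by the calcium sensor sorcin, had 11.14 and 11.11 in WT, against 11.63 and 11.55 in cKO, a difference of 0.46 (SE 0.04). Anxa4, an annexin of secretory epithelia and other cells, had 11.85 and 11.86 in WT, against 12.25 and 12.24 in cKO, a difference of 0.39 (SE 0.03). For these 3 genes the gap between the groups was several times the distance between replicates.

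Anxa3 and Anxa11 had the largest SEs of the 8. Anxa3, which promotes the aggregation of neutrophil granules, was the lowest of the 8, at 6.59 and 6.54 in WT and 7.12 and 7.00 in cKO. Its difference of 0.49 had an SE of 0.15. Anxa3 was not called without WT replicate 2 (0.47), without cKO replicate 1 (0.43), when library sums were divided out (0.37) or at an adjusted p under 0.01. Anxa11, a partner of the calcium sensor encoded by Pdcd6, had a log2 level of 8.28 in both WT libraries, against 8.55 and 8.33 in cKO. Its second cKO library thus lay close to WT, and the difference of 0.16 (SE 0.10) was not called. It was 0.27 and called without cKO replicate 2, 0.05 without cKO replicate 1 and 0.03 when library sums were divided out. Per 1000000 of the library sum, its levels overlapped between the groups, with 27.9 and 28.0 in WT and 31.0 and 26.5 in cKO.

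Of the 3 annexins outside the choice only Anxa9 was tested, and it was not called. Anxa9, whose core lacks working calcium sites, had log2 levels of 7.01 and 6.81 in WT, against 6.73 and 6.57 in cKO. It was lower in both cKO libraries, with a difference of -0.26 (SE 0.16) that did not pass (limma adjusted p = 0.22). Anxa10, with log2 levels of -1.37 and -1.49 in WT and -1.60 and -1.62 in cKO, and Anxa13, between -1.88 and -1.70, lay at the floor of the table and were not tested. Anxa8 had no row here. The antisense gene Anxa11os had 3.07 and 2.25 in WT, against 2.90 and 1.84 in cKO, so its groups overlapped (difference -0.29, SE 0.49, limma adjusted p = 0.70).

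Levels were compared between genes after division by the length of each gene's merged exons, as levels per 1000000 of the library sum and per kilobase (kb). This order in WT was not used to choose the members. Anxa5 was highest, with 364 and 356 in the WT libraries, and only 0.600% of tested genes had a higher WT level per kilobase. Anxa2 (135 and 124) and Anxa1 (128 and 130) followed and could not be ordered, since their libraries overlapped. Anxa4 came next with 71.1 and 72.2, then Anxa6 with 38.5 and 42.3 and Anxa7 with 33.8 and 33.3, each apart from its neighbours. Anxa11, with 6.76 and 6.78, and Anxa3, with 2.37 and 2.31, stood far below, and 51.1% of tested genes had a higher level than Anxa3. With the longest transcript in place of merged exons, Anxa7 (69.7 and 68.8) stood above Anxa6 (45.3 and 49.8), and Anxa1 (222 and 227) above Anxa2 (220 and 203), so the order within these pairs depends on the length used. With that length Anxa1 (483 and 490) and Anxa5 overlapped in cKO.

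In cKO the order was the same except that Anxa1, with 278 and 282, stood clear above Anxa2, with 179 in both libraries. The 8 levels per kb summed to 778 and 767 in WT and to 1115 and 1126 in cKO. Shares within this sum do not depend on the scaling between libraries, but they do rest on the inferred log2 scale. Anxa1 made up 16.4% and 17.0% of it in WT and 24.9% and 25.1% in cKO. The share of Anxa5 went from 46.7% and 46.4% to 41.5% and 42.0%, and that of Anxa4 from 9.13% and 9.41% to 7.78% and 7.64%. Anxa6 kept a like share, with 4.95% and 5.52% in WT and 4.97% and 4.95% in cKO. The shares of Anxa2, Anxa3, Anxa7 and Anxa11 were also lower in both cKO libraries. Since shares sum to a whole, the larger share of Anxa1 alone lowers those of other members.

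**Figure D2:**
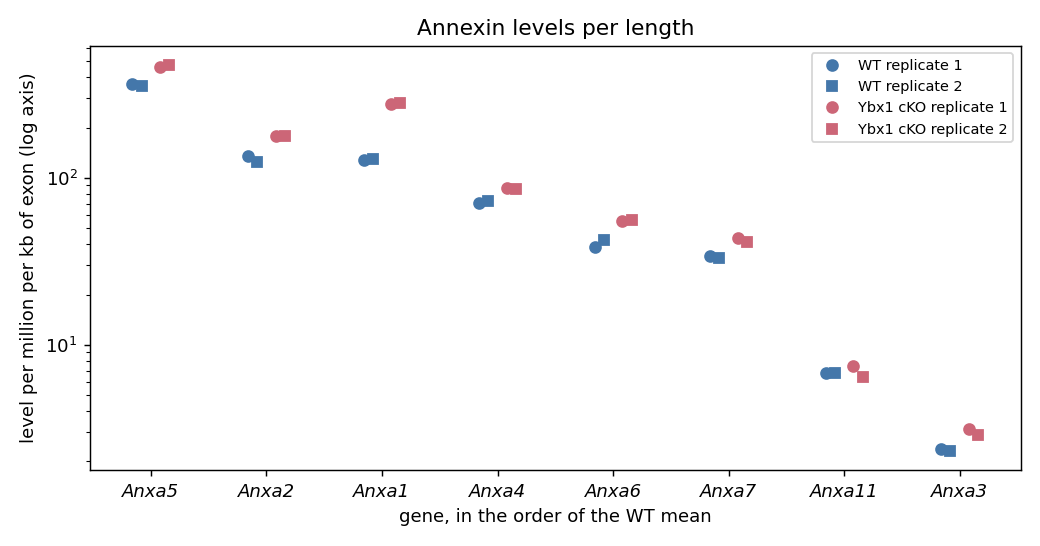
Level per 1000000 of the library sum and per kilobase of merged exons (y axis, log axis) for the 8 annexin genes in the order of their WT mean (x axis), 1 point per library, WT in blue and Ybx1 cKO in red. Anxa5 leads in both groups, and Anxa1 (278 and 282) stands clear above Anxa2 (179) in cKO, while their WT points overlap.

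Proteins that bind annexins were examined as a list of 16 genes, of which 12 had a row and 11 were tested. Of these 8 rose and 0 fell, beside 19.5% and 17.8% of all genes tested, with a list median of 0.41. Genes at or above the mean level of Anxa3 rose in 32.7% of cases. S100a10, the partner of annexin A2, rose from 9.59 and 9.69 to 10.19 and 10.17 (difference 0.54, SE 0.06, limma adjusted p = 4.1e-08). S100a6, a partner of several annexins, rose from 9.32 and 9.34 to 9.96 and 10.11 (0.70, SE 0.06, limma adjusted p = 2.2e-09). Sri, which encodes sorcin, rose by 0.56 (SE 0.02, limma adjusted p = 2.9e-15), S100a1 by 0.59 (SE 0.04) and S100a13 by 0.69 (SE 0.07). S100a11, the partner of annexin A1, rose by 0.41, and the calcium sensor gene Pdcd6 and its partner Pef1 by 0.22 and 0.21. With library sums divided out neither Pdcd6 (0.10) nor Pef1 (0.09) was called, and Pef1 was not called without WT replicate 2 or without cKO replicate 1 (limma adjusted p = 0.28 and 0.063). S100b (-0.06), Pdcd6ip (0.07) and Ahnak (-0.25) did not pass, and S100a8, S100a9, S100a12 and Gca had no row here. S100b and Ahnak had low levels and SEs of 0.41, so a difference of the list's median size could hardly have been called in them.

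**Figure D3:**
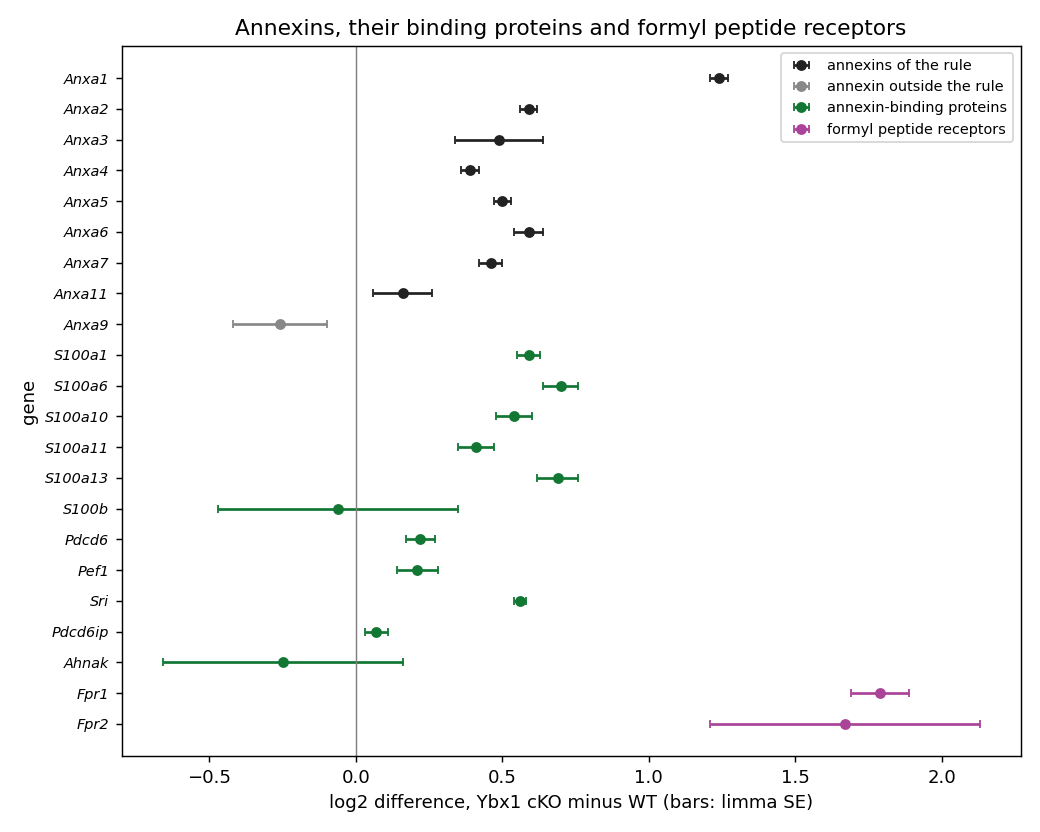
Log2 difference, Ybx1 cKO minus WT (x axis, bars are limma SEs), for the 8 annexins chosen on this difference (black), Anxa9 (grey), the 11 tested annexin-binding genes (green) and the formyl peptide receptor genes Fpr1 and Fpr2 (purple), 1 gene per line of the y axis. Of the green points 8 lie right of 0 and passed the test, and Fpr1 and Fpr2 lie furthest right.

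The list on annexin A1's receptors and on the response to glucocorticoids held 14 genes, of which 10 were tested. Of these 6 rose and 0 fell, beside 19.5% and 17.8% of all genes tested, with a median of 0.64. The share that rose was 32.7% among genes at or above the mean level of Anxa3. Fpr1, a formyl peptide receptor of phagocytes, rose from 7.31 and 7.30 to 9.15 and 9.04 (difference 1.79, SE 0.10, limma adjusted p = 1.7e-13), a 3.46-fold rise. Fpr2, the receptor best known for binding annexin A1, was low, at 1.36 and 2.58 in WT and 3.58 and 3.69 in cKO (1.67, SE 0.46, limma adjusted p = 0.0057). The call for Fpr2 was lost without WT replicate 1 (1.06, limma adjusted p = 0.16), without a filter on low values (0.16) and without a mean-variance trend (0.11). Hsd11b1, whose enzyme regenerates active glucocorticoid, rose by 3.05 (SE 0.09). Tsc22d3, a classical glucocorticoid target, rose by 0.70 (SE 0.12), and Dusp1 and Zfp36, which also answer to other signals, by 0.65 and 0.64. Nr3c1, the glucocorticoid receptor gene, had 7.63 and 7.80 in WT, against 7.78 and 7.47 in cKO, with overlapping groups (difference -0.09, limma adjusted p = 0.64). The targets Fkbp5 (0.22), Per1 (0.11) and Klf9 (0.50) did not pass.

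Genes around plasminogen, on which annexin A2 acts, moved in both directions: of 6 tested, 1 rose and 2 fell, with a median of -0.38, and 1 fell without WT replicate 1 or without cKO replicate 1. Without a mean-variance trend 0 fell. In the main fit 19.5% of all genes tested rose and 17.8% fell. Plaur, the urokinase receptor gene, rose from 12.70 and 12.75 to 14.36 and 14.40 (1.65, SE 0.02, limma adjusted p = 4.5e-24). Eno1, a glycolytic enzyme that also binds plasminogen at the surface, fell by 0.33 (SE 0.02), which was not called without the trend (limma adjusted p = 0.06). Serpinb2, an inhibitor of plasminogen activators, had low levels and a difference of -1.54 (SE 0.50, limma adjusted p = 0.018), a call that was lost without WT replicate 1 (limma adjusted p = 0.26) and without cKO replicate 1 (limma adjusted p = 0.062).

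Genes of phospholipase A2 and eicosanoid synthesis, the route that annexin A1 was first described to restrain, mostly fell or did not pass. The shares over all genes tested were 19.5% higher and 17.8% lower. Of 13 tested, 1 rose and 6 fell, with a median of -0.26, and 2 rose without WT replicate 1 or without either cKO replicate. Pla2g4a, the cytosolic phospholipase A2 that releases arachidonic acid, fell from 11.34 and 11.30 to 10.41 and 10.33 (-0.95, SE 0.05, limma adjusted p = 1.5e-14). Pla2g12a fell by 0.51 (SE 0.07), the cyclooxygenase gene Ptgs1 by 0.38 (SE 0.04) and Ptges3 by 0.15 (SE 0.04), a call lost without WT replicate 1, with library medians subtracted, without a filter and without a trend (limma adjusted p = 0.054, 0.054, 0.073 and 0.24). Alox5ap, which presents arachidonic acid to 5-lipoxygenase, was the exception and rose from 8.01 and 8.22 to 9.01 and 9.18 (0.98, SE 0.09).

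For the exposure and recognition of phosphatidylserine, the lipid bound by annexin A5, 4 of 18 tested genes rose and 5 fell, with a median of 0.05. These counts stood beside 19.5% and 17.8% of all genes tested. The 4 became 2 without WT replicate 1, without WT replicate 2, without cKO replicate 2 or with library sums divided out, and the 5 became 2 without cKO replicate 1. Cd300lf, a phosphatidylserine receptor of myeloid cells, rose by 0.70 (SE 0.05), and Mfge8, a bridging protein for the uptake of dying cells, by 0.43 (SE 0.04). The flippase gene Atp11b fell by 0.52 (SE 0.08), and the scramblase relatives Plscr3 and Plscr1 by 0.40 and 0.18. The call for Plscr3 was lost without cKO replicate 1 (-0.18, limma adjusted p = 0.14).

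C2-domain proteins also bind membranes when calcium rises but are unrelated to annexins in sequence. Of 20 tested, 5 rose and 5 fell, beside 19.5% and 17.8% of all genes tested, with a median of -0.10. Without WT replicate 2 the counts were 3 and 3, 3 fell without WT replicate 1, and 2 rose without cKO replicate 2. With library sums divided out 2 rose and 7 fell. The copine genes Cpne2 and Cpne6 fell by 0.77 (SE 0.05) and 0.72 (SE 0.18), and Unc13d, which primes granules for release, by 0.24 (SE 0.05). Esyt2, which tethers the endoplasmic reticulum to the plasma membrane, rose by 0.46 (SE 0.11) and Sytl1 by 0.63 (SE 0.14). These 5 were named because their p-values were the smallest of the list.

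**Figure D4:**
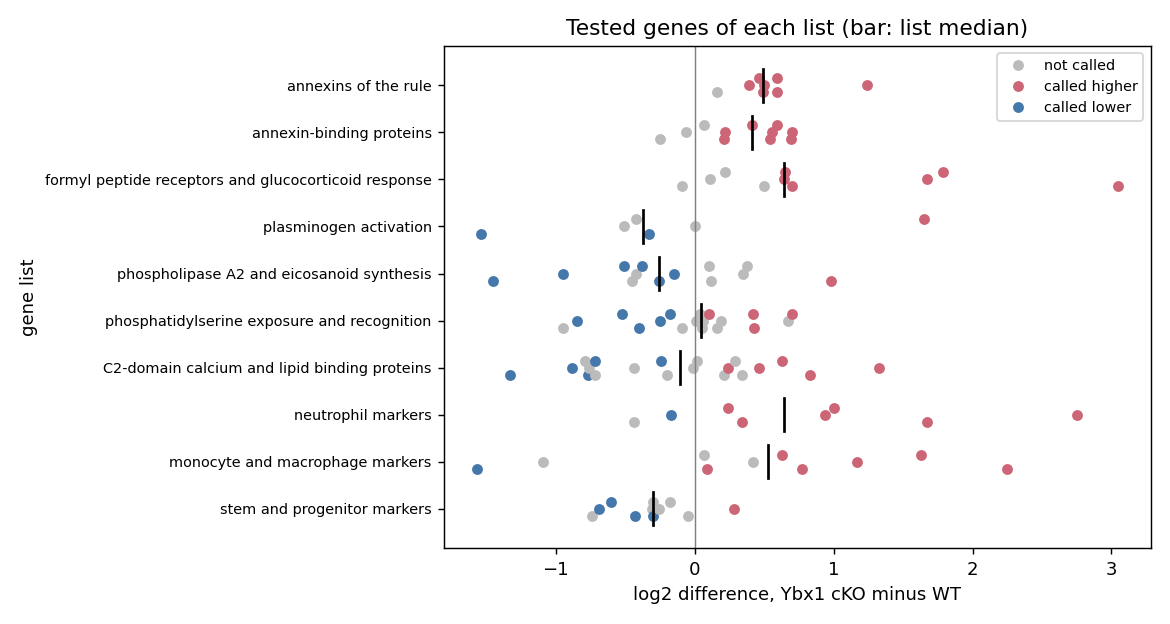
Log2 difference, Ybx1 cKO minus WT (x axis), of every tested gene in each list (y axis), red for genes called higher, blue for genes called lower and grey for genes not called, with a bar at the list median. The 8 annexins in the top line were chosen on this axis. The annexin-binding list has 8 red and 0 blue points, and the phospholipase A2 list 1 red and 6 blue points.

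Several of these genes are markers of mature myeloid cells. Most tested markers of such cells were called higher in cKO, but others fell or did not pass. Over all genes tested 19.5% rose and 17.8% fell. Among genes at or above the mean level of the lowest annexin 32.7% rose. Of 22 neutrophil markers 8 were tested, of which 6 rose and 1 fell, and their summed level went from 601 and 638 per 1000000 of the library sum in WT to 1473 and 1491 in cKO. Mmp8 rose by 2.75 (SE 0.05), Mmp9 by 1.67 (SE 0.03), Ceacam1 by 0.94 (SE 0.06) and Cebpe from a mean of 10.20 to 11.20. Mmp9 and Mmp8 had the highest cKO levels of the list (log2 means of 13.02 and 12.10) and weigh most in its sum. Lcn2 and Cxcr2 rose by only 0.24 and 0.34, Padi4 fell by 0.17 and Prtn3 (-0.44) did not pass. The defining markers Ly6g, S100a8, S100a9, Camp, Ltf, Ngp, Elane and Mpo had no row here. Of 19 monocyte and macrophage markers 10 were tested, of which 6 rose and 1 fell, and the sum went from 6661 and 6772 to 10601 and 10633. The lysozyme gene Lyz2 rose by 2.25 (SE 0.02), and without it the sum went from 5538 and 5639 to 5662 and 5751. Ms4a6c, the 1 that fell, had a difference of -1.57 (SE 0.39), a call lost without WT replicate 2 (limma adjusted p = 0.051). Marco (-1.09) and Csf1r (0.07) did not pass. Adgre1, which made up most of the sum in WT, rose by 0.09 on the log2 scale, but per 1000000 of the library sum it was 5165 and 5264 in WT and 5050 and 5138 in cKO. The endotoxin co-receptor gene Cd14 rose by 1.17 and the lysosomal marker Cd68 by 0.77, with SEs of 0.05 and 0.03, and the chemokine receptor gene Ccr2 by 0.63. The part of these markers in the annexin differences was not tested.

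Of 16 stem and progenitor markers 11 were tested, of which 1 rose and 4 fell, and the sum went from 757 and 771 to 578 and 579. The background for this and the lists that follow was again 19.5% higher and 17.8% lower. Mecom and Gata2 fell by 0.60 (SE 0.04) and 0.43 (SE 0.05), Ly6a by 0.69 (SE 0.20) and Mycn rose by 0.28 (SE 0.04). Ly6a lost its call without WT replicate 2 (limma adjusted p = 0.21). Kit and Cd34, which define many stem cell gates, had no row here, so the labelled cell type could not be checked on them. Of 12 T and NK cell markers 9 had no row here, among them Cd3e, Cd4, Cd8a and Nkg7. All 3 tested ones fell (Ccl5, Gzmb and Lat), with sums of 155 and 157 against 61.1 and 66.3. Of 12 erythroid markers 8 had no row here, and of the 4 tested 3 fell and 0 rose (Tfrc, Hemgn and Gata1). Without a mean-variance trend none of these 3 passed (limma adjusted p = 0.057, 0.077 and 0.17). Gata1 was also not called without a filter (0.089) or without cKO replicate 2 (0.062). Of 9 tested megakaryocyte and platelet markers 2 rose (Ppbp and Pf4) and 3 fell (Itgb3, Itga2b and Nfe2). Ppbp had the largest rise of this list and Itgb3 the largest fall. The call for Itga2b was lost without a filter and without a mean-variance trend. Of 10 basophil, mast cell and eosinophil markers 7 had no row here. Of the 3 tested 1 rose (Cpa3 by 0.14) and 2 fell (Hdc by 1.16 and Gata2 by 0.43). Gata2 is also counted among the stem and progenitor markers. The call for Hdc was lost without a filter and without a mean-variance trend (limma adjusted p = 0.12 and 0.14). That for Cpa3 was lost with library sums divided out (0.02), without WT replicate 2 (0.13) and without cKO replicate 1 (0.12). The only tested B cell marker, Cd79b, rose by 0.26, a call lost with library sums divided out (0.14) and without any 1 of WT replicate 1, WT replicate 2 or cKO replicate 1 (limma adjusted p = 0.27, 0.064 and 0.20).

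The 5 tested genes whose profile over the 4 libraries lay closest to the mean annexin profile, by the root mean square distance of log2 levels centred on each gene's mean, were Ube2b (0.007), Ndfip1 (0.009), Clic1 (0.010), Cisd1 (0.010) and Otub1 (0.010). Their differences ran from 0.54 to 0.57, beside 0.55 for the mean annexin profile. As many as 280 genes lay within a distance of 0.05. Among the members, Anxa3 and Anxa5 (0.04 each) lay closest to the mean profile and Anxa1 (0.35) furthest from it.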

How the data were processed

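RNA was taken with Trizol and oligo dT beads, per the labels' protocols. The submitters' processing notes name GRCm38 and the tools CASAVA, HISAT2 (2.1.0), DESeq2 and featureCounts without their order. The authors deposited 1 score per gene and library, on a log scale that they do not name. Read as log2 multiplied by 1.44, the median SD between replicates was 1.10 (WT) and 1.31 (cKO) times Poisson noise, against 4.85 and 5.94 for plain log2. Scores were therefore multiplied by 0.693. That reading treats back-transformed levels as reads, which is an assumption. Library sums of these levels were 11157952, 11074317, 12104617 and 12134026.

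Genes whose score reached 1 in 2 or more libraries entered limma 3.58.1 in R 4.3.3 (mean-variance trend, two-sided, Benjamini-Hochberg over all genes, threshold 0.05); the script was tested on simulated data. Exon lengths and positions came from GENCODE M21, matched for 27164 symbols, and promoters from RefSeq. Members, lists and tests were chosen with earlier results of these data known. Up to 5 called genes with the smallest p-values were named per related list and up to 4 per marker list. S100a11, Pdcd6, Pef1, Fpr2, Ms4a6c, Adgre1, Lcn2, Cxcr2, Padi4 and Nfe2 were added after their values were seen. So were the neighbours and the genes given as not passing.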

Additional observations from a re-analysis of the deposited data

How the results depend on the processing

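The median annexin difference of 0.50 was 0.40 under quantile normalization, 0.56 with library medians subtracted, 0.37 with library sums divided out, 0.72 with scores read as plain log2, and between 0.48 and 0.52 when 1 library was left out. The count of members called higher was 7 and ranged from 6 to 8 over all settings. The 5803 genes called in the whole table became 2267 without a mean-variance trend and stayed within 1.5 times under the other settings. With the longest transcript as length, 4 of the 8 members kept their place in the WT order. Calls were followed over the settings for 63 of the other named genes, without Adgre1, Lcn2, Cxcr2, Padi4, Nfe2 and the nearest profiles. Of these 63 genes 36 kept their call in every setting, and 27 lost it in at least 1. None of the 63 changed direction, and 26 lost their call without a mean-variance trend and 17 without a filter. Without the trend the C2-domain list had 0 genes that rose and 3 that fell, the phosphatidylserine list 2 and 0 and the plasminogen list 1 and 0. Without a filter these counts were 1 and 3, 2 and 1, and 1 and 1. In either setting 3 phospholipase A2 genes fell, and at an adjusted p under 0.01 the C2-domain list had 2 that rose and 3 that fell. Annexin-binding genes that rose numbered 6 to 9 and those of the formyl peptide receptor list 5 to 8 over all settings, with 0 that fell. Replicate differences were not correlated between the groups over the genes tested (correlation 0.01). Noise in low genes could hide a shared batch, so this cannot decide whether replicate numbers pair the libraries. With a replicate block 6026 genes and 7 members were called. With 2 libraries a group, precision rests on the variance shared across genes, and counting error could not be computed.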

Other observations

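The nearest tested protein-coding gene on each side of each annexin was examined, a set added after the data were seen. Of these 16 neighbours 2 rose in cKO, 2 fell and 12 did not pass, with a median log2 difference of -0.05. Over all genes tested 19.5% rose and 17.8% fell. Among those that did not pass, Rorb, Tmc1, Fras1, Qrfpr, Mss51 and Zcchc24 had low levels and SEs of 0.51 to 0.56. A difference of the annexins' median size could hardly have been called in them. Bmp2k, a kinase gene 152 kb from Anxa3, rose by 0.51 (SE 0.08, limma adjusted p = 5.0e-06), and Slmap, 526 kb from Anxa11, by 0.48 (SE 0.15, limma adjusted p = 0.014), a call lost without WT replicate 2 (0.34, limma adjusted p = 0.20) and with library sums divided out (0.36). Bnip2, 498 kb from Anxa2, had a difference of -0.45 (SE 0.05, limma adjusted p = 2.1e-07), and Mrps16, a mitochondrial ribosomal protein gene 61.6 kb from Anxa7, one of -0.24 (SE 0.07, limma adjusted p = 0.0067), a call lost without WT replicate 1 (-0.18, limma adjusted p = 0.15). Tnip1, only 16.2 kb from Anxa6 and at a like level, stood at 10.58 and 10.51 in WT and 10.44 and 10.60 in cKO, with overlapping groups.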
